A study of Rattus norvegicus with 19 samples.

Results

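The genes described here mark the passage of the rat liver from its fetal to its mature state. They are alpha-fetoprotein (Afp), glypican 3 (Gpc3), Dlk1, Hmga2 and the non-coding RNA H19 as fetal genes, and albumin (Alb), Tdo2, Cps1, Otc and Cebpa as genes of the maturing hepatocyte. Members were chosen by gene symbol in the platform annotation. All 10 were on the array, with 17 probe sets among the 31042 tested, and stood among 14217 genes in all. Where a gene had several probe sets, the one with the highest mean over the 19 arrays leads.

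Liver RNA was collected on postnatal day 4 and hybridised to Affymetrix Rat230_2 arrays in a study of DE-71, a commercial flame retardant mixture of pentabromodiphenyl ethers. Wistar Han dams received the mixture in corn oil by gavage each day from gestation day 6 to postnatal day 4, at 0.1, 15 or 50 mg/kg per day, and vehicle dams received corn oil alone. There were 5 arrays for vehicle, 5 at 0.1 mg/kg, 4 at 15 mg/kg and 5 at 50 mg/kg. The sources used here do not say whether the sampled livers are of the dosed dams or of their offspring, nor whether arrays of 1 group came from different litters; the p-values therefore cover only the spread between these samples, which may be technical in part. The labels give the sex as female, which for the dams is part of the protocol. On the 19 arrays the Y-linked Uty read 9.46 to 10.03 and Eif2s3y 9.55 to 10.07, whereas Xist read 3.88 to 4.29. The median of all probe set means was 6.08. High Y-linked signal with low Xist on every array is the pattern of male tissue, which neither the female label nor dams would give. All levels are log2 signals, so a difference of 1 is a doubling of signal.

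Hepatoblasts and fetal hepatocytes secrete alpha-fetoprotein and express imprinted growth genes such as H19 and Dlk1. Around birth and in the weeks after it these genes are silenced in rodents, while albumin secretion is kept and enzymes of the urea cycle and of amino acid breakdown are switched on. The transcription factor C/EBP alpha, encoded by Cebpa, drives much of the metabolic programme of the mature hepatocyte.

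Several arrays stood apart from their groups. Vehicle replicate 2 and 0.1 mg/kg replicate 2 were nearly identical: the SD of their difference over all probe sets was 0.128, against 0.197 for the next closest of the 171 pairs and a median of 0.385. They carry different dose labels, so they were kept as 2 samples, and values without both are given where they matter. The array labelled 0.1 mg/kg replicate 1 read 14.06 for Cyp1a1, the P450 induced through the aryl hydrocarbon receptor. The others of its group read 7.19 to 8.42, the 15 mg/kg arrays 13.16 to 14.17 and the 50 mg/kg arrays 14.11 to 14.30. Of the 8 defining hepatocyte markers 7 were measured, and their mean level was 14.53 to 14.61 on every array. These genes, with means from 14.36 for Fgb to 15.04 for Alb, sit at the top of the signal range. Quantile normalization leaves little room for change there, so this evenness does not measure the share of hepatocytes. Of the 11 measured skeletal muscle genes, the mean level ran from 4.28 to 11.39 in vehicle, 4.16 to 5.00 at 0.1 mg/kg, 4.66 to 7.76 at 15 mg/kg and 4.38 to 9.70 at 50 mg/kg. Of the 10 kidney and adrenal genes it was 7.73 and 7.75 on the nearly identical arrays, 6.06 on 50 mg/kg replicate 3, and close to the median of 4.41 elsewhere. Of the 11 exocrine pancreas genes it was 8.52 on each of the nearly identical arrays, 7.30 on vehicle replicate 4 and 7.96 on 15 mg/kg replicate 5, against a median of 5.18. The adrenal genes of the kidney and adrenal list stayed low throughout. Cyp11b1, Cyp11a1, Star and Hsd3b1 read at most 3.58, 5.19, 5.04 and 4.83 on any array, so high values of that list came from its kidney genes.

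No member passed the test at any dose. By limma's moderated test, with p-values adjusted across the whole array by Benjamini-Hochberg, 0 of 10 passed at 50 mg/kg, where 1.61% of all probe sets did (1.22% higher, 0.383% lower), and the lowest adjusted p among the members was 0.189. At 15 and 0.1 mg/kg 0 of 10 passed and 0% of all probe sets did, with lowest adjusted p-values of 0.533 and 1. The test over the 4 dose groups together called 0 of 10 members and 0.325% of all probe sets, with a lowest adjusted p of 0.312. At an unadjusted p under 0.05 the members numbered 1 at 50 mg/kg, 0 at 15 mg/kg and 1 at 0.1 mg/kg, where all probe sets gave 15.4%, 9.93% and 2.46%, and the 1 member was Hmga2 both times. Groups that did not overlap with vehicle were found for 0 members at 50 mg/kg (3.21% of all probe sets higher, 1.48% lower), for 0 at 15 mg/kg (2.21% higher, 1.16% lower) and for 1 at 0.1 mg/kg (0.148% higher, 0.0515% lower), again Hmga2. These are whole-tissue levels, in which fewer cells of a type and less RNA per cell cannot be told apart.

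**Figure D1:**
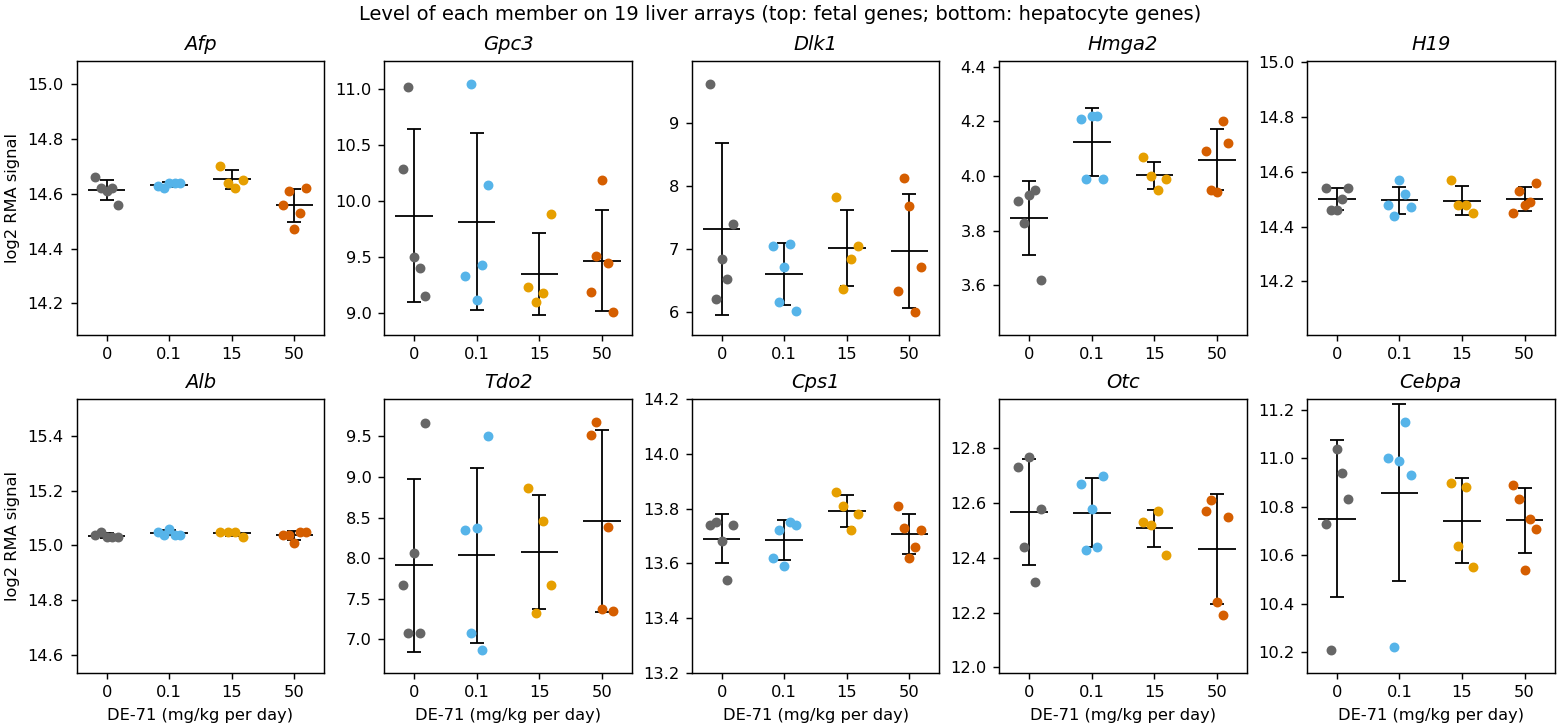
Log2 RMA signal of the leading probe set of each member (vertical axis) by DE-71 dose to the dams (horizontal axis, 0 is vehicle), with 1 point per array and the mean ± SD of each group in black; vertical scales differ between panels and do not start at 0. The panels of Gpc3, Dlk1 and Tdo2 span 2.04, 3.62 and 2.80 log2 units, those of Afp, H19 and Alb at most 0.23, and the groups overlap except for Hmga2 between vehicle and 0.1 mg/kg.

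Among the fetal genes, Afp kept a high and even signal at all doses. Afp encodes the main plasma protein of the fetus, secreted by yolk sac and fetal liver. In vehicle it read 14.66, 14.62, 14.61, 14.62 and 14.56 on replicates 1 to 5. At 50 mg/kg it read 14.56, 14.61, 14.47, 14.53 and 14.62, so the groups overlapped, with 50 mg/kg replicate 3 lowest of the 19. That array also carried the muscle list at 9.39 and the kidney and adrenal list at 6.06. The 0.1 mg/kg arrays lay between 14.62 and 14.64 and the 15 mg/kg arrays between 14.62 and 14.70. The difference from vehicle at 50 mg/kg was -0.06 (SE 0.0458, 95% interval -0.15 to 0.04, adjusted p = 0.582), which on this scale leaves room for a fall to 0.900 of the vehicle signal or a rise to 1.03 times. It was -0.02 with arrays centred on their medians, -0.09 with cyclic loess, -0.03 without 50 mg/kg replicate 3 and -0.06 with the muscle and pancreas lists as covariates. At 15 and 0.1 mg/kg the differences were 0.03 (-0.07 to 0.14) and 0.02 (-0.08 to 0.11).

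Albumin, the main plasma protein after birth and a paralogue of alpha-fetoprotein, had the most even signal of all 14217 genes within dose groups (SD 0.0109). Its leading probe set had the highest signal of the 31042 on each of the 19 arrays, between 15.01 and 15.06. Quantile normalization gives the brightest probes of each array nearly the same value, which leaves little room for a change in albumin RNA to appear in these values. The difference from vehicle was 0.00 (-0.08 to 0.09) at 50 mg/kg and 0.01 at 15 and at 0.1 mg/kg, and the second Alb probe set differed by -0.01, 0.02 and 0.01. Afp is subject to the same limit, ranking between 5 and 21 from the top of an array, and so is H19, at 10 to 22.

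Afp and Alb are neighbours in the rat genome, 15918 bases apart with 0 annotated genes between them on chromosome 14. Their promoter windows, 250 bases before to 50 after the RefSeq start on the minus strand of GRCr8, are shown because these probe sets mark the top of the signal range. They are chr14:17875596-17875895 for Afp and chr14:17906930-17907229 for Alb. Capitals mark the C/EBP motif TTGCNNAA, searched on both strands, and the letters GTTAAT, which open the binding motif of the liver factor HNF1.
Afp: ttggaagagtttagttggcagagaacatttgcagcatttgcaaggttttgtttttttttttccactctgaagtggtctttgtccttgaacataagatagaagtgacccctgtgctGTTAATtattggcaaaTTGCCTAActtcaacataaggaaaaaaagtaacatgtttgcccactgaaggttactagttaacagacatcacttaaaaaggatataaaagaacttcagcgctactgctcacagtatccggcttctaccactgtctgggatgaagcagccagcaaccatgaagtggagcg
Alb: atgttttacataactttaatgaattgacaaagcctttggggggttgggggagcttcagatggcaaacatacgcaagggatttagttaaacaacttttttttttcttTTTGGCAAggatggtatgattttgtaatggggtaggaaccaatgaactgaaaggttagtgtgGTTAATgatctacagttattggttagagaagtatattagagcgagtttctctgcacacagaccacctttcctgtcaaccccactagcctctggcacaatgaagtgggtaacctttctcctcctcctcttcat
The C/EBP match starts 119 bases before the start of Afp and 144 before that of Alb, and the GTTAAT match 135 and 82 bases before. Of the 9 members with a RefSeq window these were the only 2 with either match, while 10.6% and 7.45% of all 33469 windows hold the letters TTGCNNAA and GTTAAT. The full HNF1 motif was in 0 member windows and in 0.00299% of all windows. The search for GTTAAT alone was added after the sequences had been read. The aryl hydrocarbon receptor core GCGTG, on either strand, was in 3 of the 9 windows, 5 times in Dlk1, 3 times in Gpc3 and once in Otc, and in 29.7% of all windows. A letter match is not a measured binding site.

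H19 is a maternally expressed imprinted RNA that is abundant in fetal liver and muscle. Its levels were 14.46 to 14.54 in vehicle, 14.44 to 14.57 at 0.1 mg/kg, 14.45 to 14.57 at 15 mg/kg and 14.45 to 14.56 at 50 mg/kg. The 4 groups lay on top of each other. The difference from vehicle was 0.00 (SE 0.0473, -0.10 to 0.10, adjusted p = 0.994) at 50 mg/kg and -0.01 at each lower dose. In rat the H19 gene (GRCr8, chromosome 1, 207160175 to 207162851) is also the source of the microRNA miR-675, shown here because its hairpin is cut from the transcript that this probe set reports; the mature microRNA itself was not measured. The RefSeq mature sequences lie at chr1:207161800-207161821 and chr1:207161766-207161786 on the minus strand, with the seed, bases 2 to 8, in capitals.
rno-miR-675-5p: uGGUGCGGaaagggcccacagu
rno-miR-675-3p: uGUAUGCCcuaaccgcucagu
The seeds of the 2 arms differ.

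Hmga2, a chromatin protein of proliferating embryonic cells, was the member with the smallest p-values, at a level close to the bottom of the range. Its single probe set averaged 4.01 over the arrays and was dimmer than most (17.52nd percentile of probe sets), and the file gives no detection call, so it is not known whether this signal lies above background. Vehicle arrays read 3.91, 3.83, 3.93, 3.95 and 3.62. At 0.1 mg/kg the values were 4.21, 3.99, 4.22, 4.22 and 3.99, all above the vehicle arrays. At 15 mg/kg they were 4.07, 4.00, 3.95 and 3.99 on replicates 2 to 5, and at 50 mg/kg 4.09, 3.95, 3.94, 4.20 and 4.12, both groups reaching down to the vehicle range. At 0.1 mg/kg the groups did not overlap, as in 0.148% of all probe sets that stood higher there, yet the adjusted p of the difference was 1 (0.27, SE 0.0762, 0.11 to 0.43, higher on 5 of 5 arrays). The differences at 15 and 50 mg/kg were 0.15 (-0.02 to 0.32, adjusted p = 0.533) and 0.21 (0.05 to 0.37, adjusted p = 0.189), so the order of the means did not follow the dose. With a block for early against late arrays (by array number) the 50 mg/kg difference was 0.18 (adjusted p = 0.449). Without the nearly identical arrays, which read 3.83 in vehicle and 3.99 at 0.1 mg/kg, the differences at 0.1, 15 and 50 mg/kg were 0.30, 0.15 and 0.20 (adjusted p = 0.817, 0.591 and 0.25). The 0.1 mg/kg group also holds replicate 1, the array with Cyp1a1 at 14.06. Over all alternative fits, those without that array among them, the 0.1 mg/kg difference of Hmga2 ran from 0.20 to 0.33.

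**Figure D2:**
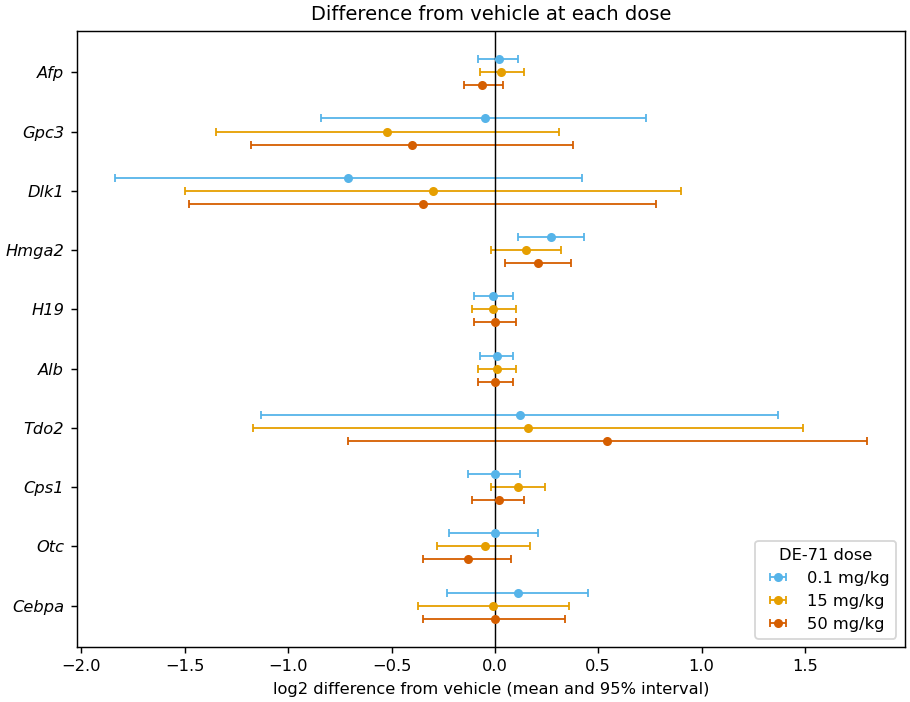
Log2 difference from vehicle (horizontal axis) of each member's leading probe set at 0.1, 15 and 50 mg/kg DE-71, with points for the difference of group means and bars for limma's 95% interval over all 19 arrays. The intervals of Afp, H19, Alb and Cps1 are narrow and those of Dlk1, Gpc3 and Tdo2 wide; only Hmga2 at 0.1 and 50 mg/kg has an interval clear of 0 before adjustment.

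Dlk1, a paternally expressed imprinted membrane protein of hepatoblasts and of other immature cells, varied more between arrays of a group than 97.7% of genes (SD 0.923). Vehicle arrays read 9.62, 6.21, 6.84, 6.52 and 7.39, and the 50 mg/kg arrays 6.33, 8.12, 7.68, 6.00 and 6.71. At 0.1 mg/kg the values were 7.04, 6.16, 6.72, 7.08 and 6.01, and at 15 mg/kg 7.82, 6.36, 6.84 and 7.05 on replicates 2 to 5. Vehicle replicate 1 was highest by far and the groups overlapped. The difference at 50 mg/kg was -0.35 (SE 0.537, -1.48 to 0.78, adjusted p = 0.788). Without vehicle replicate 1 it was 0.23 (adjusted p = 0.835), and with a block for early against late arrays -1.07 (adjusted p = 0.426). It was -0.63 without vehicle replicate 2, -0.55 without vehicle replicate 4 and -0.63 without both nearly identical arrays. At 15 and 0.1 mg/kg the differences were -0.30 and -0.71, and without vehicle replicate 1 they were 0.28 and -0.13.

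The arrays with the most Dlk1 signal also carried skeletal muscle transcripts and a raised stellate and mesenchyme list. On vehicle replicate 1 the muscle list averaged 11.39, on 50 mg/kg replicate 2 9.70, on 50 mg/kg replicate 3 9.39 and on vehicle replicate 5 9.31, and Dlk1 there read 9.62, 8.12, 7.68 and 7.39. On 15 mg/kg replicate 2 Dlk1 read 7.82 with the muscle list at 6.95, and on 15 mg/kg replicate 4 it read 6.84 with the muscle list at 7.76, so the order of Dlk1 did not follow that of the list throughout. The stellate and mesenchyme list was high as well, at 10.87, 9.94, 10.02 and 10.05 on the arrays first named, against a median of 9.19. It read 10.02 on 15 mg/kg replicate 5 and 9.59 on vehicle replicate 2, where Dlk1 read 7.05 and 6.21. That list was not tested as a covariate. With the muscle and pancreas lists as covariates the Dlk1 differences were -0.43 at 50 mg/kg, -0.21 at 15 mg/kg and -0.01 at 0.1 mg/kg (adjusted p = 0.608, 0.809 and 1).

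Gpc3, a heparan sulfate proteoglycan of the cell surface that fetal liver expresses and adult liver silences, varied nearly as much (SD 0.636, more than 95.3% of genes). In vehicle it read 10.29, 11.02, 9.50, 9.40 and 9.15, and at 0.1 mg/kg 9.33, 11.05, 9.12, 9.43 and 10.15. At 15 mg/kg the values were 9.23, 9.10, 9.18 and 9.89 on replicates 2 to 5, and at 50 mg/kg 9.19, 9.51, 10.19, 9.45 and 9.01. The highest values were those of the nearly identical arrays, and the groups overlapped. Most arrays read 9.01 to 9.51 whatever the dose. The difference was -0.40 (SE 0.372, -1.18 to 0.38, adjusted p = 0.634) at 50 mg/kg, -0.52 (adjusted p = 0.655) at 15 mg/kg and -0.05 (adjusted p = 1) at 0.1 mg/kg. A second, dimmer probe set gave -0.45, -0.55 and -0.21.

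High Gpc3 signal stood beside transcripts of other tissues on most of these arrays. The nearly identical arrays carried the kidney and adrenal list at 7.73 and 7.75 and the bile duct and progenitor list at 7.65 and 7.67. The kidney and adrenal list was at 6.06 on 50 mg/kg replicate 3 (Gpc3 10.19), and the muscle list at 11.39 on vehicle replicate 1 (Gpc3 10.29). On 0.1 mg/kg replicate 5 Gpc3 read 10.15 with the kidney and adrenal list at 4.41, the muscle list at 4.56 and the pancreas list at 5.19, all near their medians. Other arrays with high lists read less Gpc3. It was 9.51 on 50 mg/kg replicate 2 and 9.15 on vehicle replicate 5, with the muscle list at 9.70 and 9.31. With the pancreas list at 7.30 on vehicle replicate 4 and 7.96 on 15 mg/kg replicate 5, Gpc3 read 9.40 and 9.89. Without the nearly identical arrays the Gpc3 differences were -0.12, -0.23 and -0.08 at 50, 15 and 0.1 mg/kg, and with the muscle and pancreas lists as covariates 0.07, -0.36 and 0.33, so the sign at 50 and at 0.1 mg/kg turned with that setting. Leaving out single arrays moved the 0.1 mg/kg difference from -0.36 without 0.1 mg/kg replicate 2 to 0.23 without vehicle replicate 2.

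**Figure D3:**
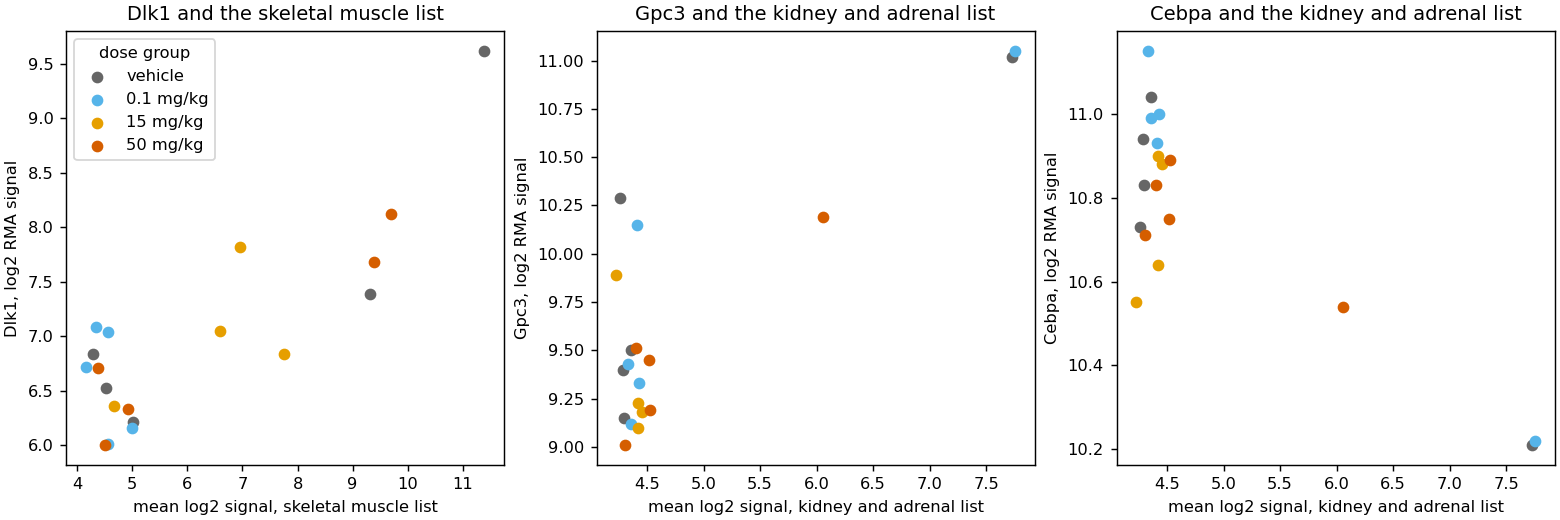
Log2 RMA signal of Dlk1, Gpc3 and Cebpa (vertical axes) against the mean log2 signal of the skeletal muscle or the kidney and adrenal list (horizontal axes), with 1 point per array coloured by dose group. Dlk1 is highest, at 9.62, where the muscle list is highest, at 11.39, and the nearly identical arrays stand alone at the right with the highest Gpc3 (11.02 and 11.05) and the lowest Cebpa (10.21 and 10.22).

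Among the genes of the maturing hepatocyte, Tdo2 varied most. Tdo2 encodes tryptophan dioxygenase, which opens the tryptophan ring at the entry of the kynurenine pathway and is induced by glucocorticoids in rat liver. In vehicle it read 7.67, 7.08, 8.07, 7.08 and 9.67, and at 0.1 mg/kg 8.35, 7.08, 8.37, 6.87 and 9.50. At 15 mg/kg it read 8.86, 7.33, 8.46 and 7.67 on replicates 2 to 5, and at 50 mg/kg 9.52, 9.68, 7.37, 8.38 and 7.35. High arrays, at 9.50 to 9.68, were found in the vehicle, 0.1 and 50 mg/kg groups, and the 19 arrays spanned 6.98-fold. The within-group SD of 1.02 exceeded that of 98.1% of genes. The difference at 50 mg/kg was 0.54 (SE 0.596, -0.71 to 1.80, adjusted p = 0.692), an interval of 0.612-fold to 3.47-fold. It was 0.98 without vehicle replicate 5 (adjusted p = 0.467), 0.34 and 0.33 without vehicle replicate 2 or 4, and 0.17 with a block for early against late arrays. At 15 and 0.1 mg/kg the differences were 0.16 and 0.12, and leaving out single arrays moved them widely. At 15 mg/kg the value ran from -0.10 without 15 mg/kg replicate 2 to 0.60 without vehicle replicate 5, and at 0.1 mg/kg from -0.25 without 0.1 mg/kg replicate 5 to 0.56 without vehicle replicate 5.

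Both urea cycle members were steady. Cps1, the mitochondrial carbamoyl phosphate synthetase that starts the cycle, ran from 13.54 to 13.75 in vehicle, 13.59 to 13.75 at 0.1 mg/kg, 13.72 to 13.86 at 15 mg/kg and 13.62 to 13.81 at 50 mg/kg. Its differences from vehicle were 0.02 (-0.11 to 0.14), 0.11 (-0.02 to 0.24) and 0.00 (-0.13 to 0.12) at 50, 15 and 0.1 mg/kg, and its second probe set gave 0.09, 0.08 and 0.14. Otc, ornithine carbamoyltransferase, which makes citrulline in the next step, ran from 12.31 to 12.77 in vehicle, 12.43 to 12.70 at 0.1 mg/kg, 12.41 to 12.57 at 15 mg/kg and 12.19 to 12.61 at 50 mg/kg. Its difference at 50 mg/kg was -0.13 (SE 0.102, -0.35 to 0.08, adjusted p = 0.559), with 50 mg/kg replicates 3 and 4 at 12.24 and 12.19 lowest of the 19. It ran from -0.20 without vehicle replicate 4 to -0.07 without 50 mg/kg replicate 4, and was -0.21 with the muscle and pancreas lists as covariates. For both genes the groups overlapped.

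Cebpa, the factor that holds hepatocytes in their differentiated state, had 5 probe sets and did not pass on any. On the leading one vehicle arrays read 10.73, 10.21, 11.04, 10.94 and 10.83 and the 50 mg/kg arrays 10.89, 10.83, 10.54, 10.75 and 10.71. The 0.1 mg/kg arrays read 11.00, 10.22, 10.99, 11.15 and 10.93, and the 15 mg/kg arrays 10.90, 10.64, 10.88 and 10.55 on replicates 2 to 5. The nearly identical arrays were lowest, at 10.21 and 10.22, and carried the kidney and the pancreas transcripts given above. The difference at 50 mg/kg was 0.00 (SE 0.162, -0.35 to 0.34, adjusted p = 0.994), -0.14 without vehicle replicate 2 and -0.21 (adjusted p = 0.464) with the muscle and pancreas lists as covariates. At 15 and 0.1 mg/kg the differences were -0.01 and 0.11, and the latter was 0.27 without 0.1 mg/kg replicate 2 and -0.03 without vehicle replicate 2. The other 4 Cebpa probe sets gave differences of -0.20 to 0.00 at 50 mg/kg.

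**Figure D4:**
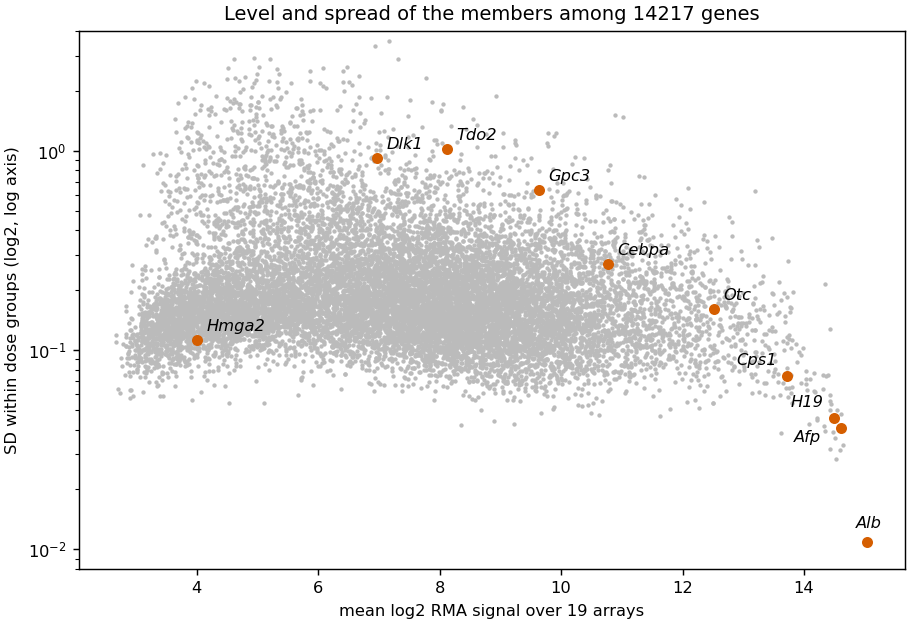
Mean log2 RMA signal over the 19 arrays (horizontal axis) and SD within dose groups (vertical axis, log scale) of 14217 genes in grey, 1 leading probe set per gene, with the members in orange. Alb, Afp and H19 sit at the right end of the signal range with SDs of 0.0109, 0.0409 and 0.0458, while Tdo2, Dlk1 and Gpc3 lie near the upper edge at 1.02, 0.923 and 0.636.

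No correlation between members passed its test. Over 18 arrays, leaving out 0.1 mg/kg replicate 2, none of the 45 pairs of members passed after Benjamini-Hochberg adjustment of permutation p-values of Pearson's r or Spearman's rho. The lowest permutation p was that of Gpc3 and Cebpa (r = -0.63, p = 0.00778, adjusted p = 0.35; rho = -0.23, p = 0.348, adjusted p = 0.783). Without the 2 arrays farthest in Cebpa r was -0.14, and it was -0.79 and -0.59 within the 7 early and 11 late arrays.

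For each member the 3 genes with the highest Pearson's r among all genes are given. This is a description over 19 arrays that share their normalization and the other-tissue transcripts above. These genes were picked for their r, so values above those between members follow from the choice. Spearman's rho was lower for some, as for Afp with Cyp17a1 (0.55) and Cps1 with Tex15 (0.54), and higher for others, as for H19 with Stard13 (0.88). The genes most like Dlk1 were Plac9, Bin1 and Thbd (Pearson's r 0.94, 0.93 and 0.92). Rimklb, Pygb and Slc8a1 had an r of 0.92 with Gpc3, and 0.79, 0.80 and 0.81 over 16 arrays without the nearly identical arrays and 0.1 mg/kg replicate 1. For Afp they were Ahsg (0.92), a plasma protein also listed among the hepatocyte markers, Cyp17a1 (0.86), a steroid-forming P450, and Ttr (0.80), the thyroxine carrier. Otc went with Ghr, the growth hormone receptor (0.86), Rgn (0.84) and Bbox1 (0.83), a carnitine synthesis enzyme. Tdo2 went with Slc25a48 (0.81), Slco1a4 (0.81), an organic anion transporter, and Baat (0.79), which conjugates bile acids. Cebpa went with Cpne8 (0.93), Mrps5 (0.93) and Mmachc (0.88), and over the 16 arrays at 0.83, 0.81 and 0.72. The closest genes to H19 were Pycr3, Stard13 and Xylt2 (0.83, 0.80 and 0.80), to Hmga2 Ier3, Cst5 and Pop1 (0.74, 0.73 and 0.73), to Alb Zscan20, Kat14 and Epm2a (0.71, 0.68 and 0.66), and to Cps1 Tex15, Ina and Selenop (0.68, 0.67 and 0.67).

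Wider lists of the same pathways held no call. Of 18 measured oncofetal and imprinted growth genes 0 passed at any dose. At 50 mg/kg 14 of them stood lower and 4 higher, with a median of -0.09 against 0.01 over all genes. The largest differences were those of Cdkn1c, an imprinted inhibitor of the cell cycle (-1.13, SE 0.665, adjusted p = 0.431), and Plagl1, an imprinted zinc finger factor (-0.75, SE 0.554, adjusted p = 0.541). At 15 and 0.1 mg/kg the medians were -0.13 and -0.06, with Cdkn1c at -0.82 and -0.8 and Plagl1 at -0.71 and -0.95. Of 6 measured genes listed as regulators of Afp 0 passed. Zbtb20 and Zhx2 are known to repress it after birth in mouse, and Zhx1 and Zhx3 are listed as relatives of Zhx2. At 50 mg/kg Zbtb20 stood at -0.37 (SE 0.136, adjusted p = 0.195) and Nr5a2, an activator, at 0.20 (adjusted p = 0.572). Zhx2 stood at 0.06 (adjusted p = 0.878). Zhx2 and Zhx3 were dim, with means of 4.39 and 4.98 against a median of 6.08 over all probe sets. The medians of that list at 50, 15 and 0.1 mg/kg were -0.04, -0.06 and -0.01.

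Of 16 liver-enriched transcription factors 0 passed at any dose (medians 0.00, 0.01 and 0.05 at 50, 15 and 0.1 mg/kg). The largest differences at 50 mg/kg were those of Onecut1, a factor of early liver and bile duct (-0.64, SE 0.314, adjusted p = 0.34), and Cebpb, a relative of Cebpa (0.47, SE 0.148, adjusted p = 0.121). All 8 urea cycle genes were measured and 0 passed (medians -0.02, 0.00 and 0.05), with the lyase Asl at -0.38 (adjusted p = 0.348) and the ornithine carrier Slc25a15 at -0.22 (adjusted p = 0.298) at 50 mg/kg. Of 9 tryptophan and kynurenine pathway genes 0 passed (medians 0.01, 0.11 and 0.06), with Afmid, which hydrolyses formylkynurenine, at 0.40 (adjusted p = 0.204) after Tdo2. Of 14 enzymes that rise around birth 0 passed (medians -0.09, 0.01 and 0.05), and Tat, tyrosine aminotransferase, stood at 0.48 (SE 0.543, adjusted p = 0.706). Of 17 secreted hepatocyte proteins 0 passed (medians 0.00, 0.02 and 0.01), with Apoa2 at 0.48 (adjusted p = 0.386) and the fibrinogen chain Fgb at 0.20 (SE 0.0581, adjusted p = 0.0949). Most of these genes lie near the top of the signal range, which leaves little room for a change to appear.

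The lists of other cells held a single call. Of 7 measured macrophage and neutrophil genes 1 fell at 50 mg/kg, Camp, which encodes the antimicrobial cathelicidin of neutrophils (-0.94, adjusted p = 0.0457), where 0.383% of all probe sets fell. The other 6 did not pass, and all 7 stood lower than in vehicle, with a median of -0.27. Of 7 hepatocyte markers, 6 bile duct and progenitor, 8 erythroid, 12 stellate and mesenchyme, 11 muscle, 11 pancreas and 10 kidney and adrenal genes 0 passed at any dose. Their medians at 50 mg/kg were -0.01, -0.32, -0.32, -0.53, -0.28, -1.04 and -0.32 in that order, against 0.01 over all genes. A few arrays with other-tissue transcripts, in vehicle and at 50 mg/kg, weigh on the last 3 values. The median array in vehicle and at 50 mg/kg read 5.01 and 4.93 for the muscle list. It read 5.17 and 5.07 for the pancreas list, and 4.30 and 4.52 for the kidney and adrenal list. The highest vehicle arrays of these lists read 11.39, 8.52 and 7.73. Vehicle replicate 5 read 9.31 for the muscle list and vehicle replicate 4 read 7.30 for the pancreas list. At 50 mg/kg replicates 2 and 3 read 9.70 and 9.39 for the muscle list, and replicate 3 read 6.06 for the kidney and adrenal list.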

How the data were processed

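Liver RNA of 19 arrays was analysed. The deposited values are log2 signals made by the authors with RMA (robust multi-array average: background correction, quantile normalization and probe summary), per the submitters' processing notes. No RMA version is stated in those notes. RMA compresses differences at both ends of the range. Liver tissue came from the left lobe, per the labels' protocols, and 100 ng of total RNA entered the amplification. Array medians lay between 6.05 and 6.16.

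Control probe sets (57 of 31099) were left out. The platform annotation gave 20826 probe sets 1 symbol, 436 several and 9780 none, and 20758 of the first matched RefSeq (GRCr8) by gene ID. A mean per dose group was fitted to 31042 probe sets over 19 arrays with limma 3.58.1 in R 4.3.3 (15 residual and 2.78 prior degrees of freedom), with two-sided moderated tests, Benjamini-Hochberg adjustment over all probe sets and a threshold of 0.05. The number of arrays limits the precision. The design text names R/maanova at the same threshold, which was not used. The fit was tested on simulated data.

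Members, lists, tests and alternatives were chosen with earlier results of these data known. All members are described. Each pathway list names any gene that passed and the 2 with the largest absolute difference at 50 mg/kg, and each member its 3 most correlated genes. Camp, outside this rule, is named as the 1 call among the lists of other cells. Correlations between members used 100000 permutations. Early arrays are the 7 numbered 1 to 8 by the submitters (4 of them at 50 mg/kg, 1 in each other group) and late arrays the 12 numbered 9 to 20. Early and late refer to this number alone. The cut between 8 and 9 was set here, and no label names the 2 sets as batches. Replicate numbers do not pair the samples, since the labels give no shared litter or day. Of 27 same-numbered pairs across groups, 11 had a correlation of deviations over 0.1. Promoter and microRNA sequences are from RefSeq, GRCr8; promoters matched 9 of 10 members.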

Additional observations from a re-analysis of the deposited data

Results flagged for a closer look

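Within dose groups, 4 of the 40 sets of values (10 members, 4 groups) held an array with a gap to its nearest neighbour that was large for the range of its group, where chance gives about 1 in 20. Gpc3 read 9.89 on 15 mg/kg replicate 5 against 9.10 to 9.23 on the others of its group, and that array also carried the pancreas list at 7.96 and the bile duct and progenitor list at 7.76. Cebpa read 10.22 on 0.1 mg/kg replicate 2 against 10.93 to 11.15, the array nearly identical to vehicle replicate 2. Alb read 15.03 on 15 mg/kg replicate 5 against 15.05, and 15.01 on 50 mg/kg replicate 3 against 15.04 to 15.05, gaps of little size at the top of the signal range.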

How the results depend on the processing

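The count of members past the threshold was 0 in each of the 101 alternative counts over the 3 doses and the 4 dose groups together, including all fits that left out 1 array (0 to 0), and the lowest adjusted p of any member was 0.14 against vehicle and 0.101 over the 4 groups. The alternatives were a filter on dim probe sets (which removes Hmga2), a trend and robust prior, fits of the compared groups alone, the replicate block, early and late arrays as a block, median centring, cyclic loess, muscle and pancreas lists as covariates, array weights and the mean of a gene's probe sets. Fits without the 2 nearly identical arrays, without these and 0.1 mg/kg replicate 1, and with the kidney and adrenal list as a further covariate were chosen after the data had been seen. With the replicate block 0 members passed at 50 mg/kg (lowest adjusted p = 0.177), and the count over all probe sets was 511 against 499; the block changed no other call, and 6 of 19 arrays correlated best with their own number. Early and late arrays as a block left 57 of all probe sets at 50 mg/kg, and 0 members. Of 697 alternative differences of single members, 6 moved by more than the within-group SD, all of Alb, whose values then ran from -0.03 to 0.04 under median centring and cyclic loess. Signs turned in 85 of the 697, in 19 of the 30 differences, none of them called. Signal limits what can be seen of Alb, Afp and H19 at the top of the range and of Hmga2 at its bottom, and the spread between arrays limits Dlk1, Gpc3 and Tdo2.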
